A study of Mus musculus with 58 samples.

Results

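Potassium channel genes, those whose mouse symbol starts with Kcn, were described in 2 cortical regions, entorhinal (EC) and primary visual (PVC), of aged *APOE* targeted replacement mice. Of 91 Kcn genes among the 31246 genes listed for each region, 76 had a mean normalized count of at least 10 in both regions and were kept, next to 15642 such genes in all. *Kcne2* and *Kcnj13*, which mark the choroid plexus, were left out by rule, and 13 others were left out for a low mean. The tissue came from male C57Bl/6 mice of 14 to 15 months, 10 *APOE3/3* and 19 *APOE3/4*, whose mouse *Apoe* gene is replaced by human *APOE* under the murine promoter. Mice of both genotypes thus carry human *APOE3*, and they came from a pair of separate colonies and lacked overt Alzheimer's disease pathology. The same 29 animal numbers stand in both regions, giving 58 libraries. Each region's deposited value is 1 mean over its 29 libraries, with both genotypes pooled, so no SD, n or test accompanies the values below and the genotypes were not compared. The comparison is of the EC, which is affected early in Alzheimer's disease, with the PVC, which is relatively spared.

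Potassium channels let potassium leave the cell, which pulls the membrane back toward rest after an action potential and sets how readily a neuron fires. Voltage-gated (Kv) channels open on depolarization, calcium-activated channels follow firing, and inward rectifiers and 2-pore channels hold the resting potential, in neurons and in glia alike. Modifier subunits do not conduct alone but change the channels they join, and auxiliary subunits alter gating or transport without lining the pore.

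The part of the sequence that makes these proteins potassium channels is the selectivity filter, a run of 5 residues that begins with threonine or serine and holds glycine, then an aromatic residue in most channels, then glycine. A search of the longest coding sequence of each gene for these codons, in frame on the coding strand, found them in 64 of the 64 pore-forming and modifier genes and in 0 of the 12 auxiliary and BK beta genes, against 5.14% of 22594 protein-coding genes. The sequences of 5 genes with large regional ratios are shown because the filter is what these genes have in common with the other pore-forming and modifier members. Each is written 5′ to 3′ on the coding strand, from coding exons of the NCBIM37 (mm9) genome, with the 5 filter codons in capitals. The first group had the higher level in the EC.
Kcng1, chr2:168088135-168088164, minus strand: accatgacaACCGTAGGCTACGGAgacatg
Kcna5, chr6:126483757-126483786, minus strand: actatgaccACTGTAGGCTACGGGgacatg

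The second group had the higher level in the PVC.
Kcnh5, chr12:76188447-76188476, minus strand: agccttacaACCATAGGATTTGGAaacata
Kcng4, chr8:122149804-122149833, minus strand: tccatgacgACCGTGGGCTATGGGgacatg
Kcnh4, chr11:100611601-100611630, minus strand: agcctcaccAGTGTAGGCTTCGGCaacgtg

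*Kcng1*, *Kcna5* and *Kcng4* carry a tyrosine codon before the last glycine. *Kcnh5* and *Kcnh4* carry a phenylalanine codon in place of tyrosine, as do all 7 genes of the EAG, ERG and ELK family. All 10 of the 2-pore genes have 2 filters each, and *Kcna6* and *Kcnh2* have a further match outside their known filter. Of the matches in all members, 47 had a tyrosine, 23 a phenylalanine and 4 a leucine codon, with genes on chromosome 18 not counted. A match of codons describes the sequence and says nothing of its regional level.

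The tables of the 2 regions were normalized separately, so their scales differ. Over all genes the sum of the means was 49385488 for the EC against 27058393 for the PVC, and the median gene was listed 1.86 times as high in the EC. Ratios of EC over PVC were therefore divided by 1.86, which puts the median of all genes at a log2 ratio of 0, and a gene was called different when it lay past 1.5-fold. A call states a size and comes with no replicate check. In bulk tissue, fewer cells of a type and less RNA per cell cannot be told apart.

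Potassium channel genes leaned toward the PVC. Of the 76 genes, 6 (7.89%) were called higher in the EC, where 6.78% of all genes were, and 16 (21.1%) were called higher in the PVC, where 5.38% of all genes were. In either direction 22 members (28.9%) were called, against 12.2% of all genes. The shares of all genes, 6.78% for the EC and 5.38% for the PVC, are also the background for the counts by family and list below. The median log2 ratio of the members was −0.25, and 49 of them lay below 0 and 27 above. Their ratios also lay farther from 0, with a median absolute log2 ratio of 0.38 against 0.15 over all genes. This distance includes their lean toward the PVC and is not a measure of spread alone. Past 2-fold were 10 members (13.2%), against 4.78% of all genes.

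The counts depend on the scale. Scaling the tables on 7 pan-neuronal genes shifts the ratio of every gene, and so the median of all genes, up by 0.21 on the log2 scale. On that scale 10 members (13.2%) were called in each direction, where 12.2% of all genes were called higher in the EC versus 3.32% in the PVC. The median of the members became −0.04 and, as the shift is common to all genes, stayed 0.25 below that of all genes. Among the genes then no longer called were *Kcnh3*, *Kcnj10*, *Kcnk4*, *Kcns3* and *Kcnv1*, and *Kcna4*, *Kcnd3*, *Kcne4* and *Kcnk10* were called higher in the EC. Under every scaling tried, without a minimum and with 10 counts added, 5 genes were called higher in the EC (*Kcna5*, *Kcng1*, *Kcng3*, *Kcnn3*, *Kcnq1*) and 10 in the PVC (*Kcnab3*, *Kcng4*, *Kcnh1*, *Kcnh4*, *Kcnh5*, *Kcnh7*, *Kcnj11*, *Kcnk3*, *Kcnq5*, *Kcns1*). With a minimum of 100 in both regions, *Kcna5* and *Kcnq1* were left out for their PVC means of 43.6 and 17.6.

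**Figure D1:**
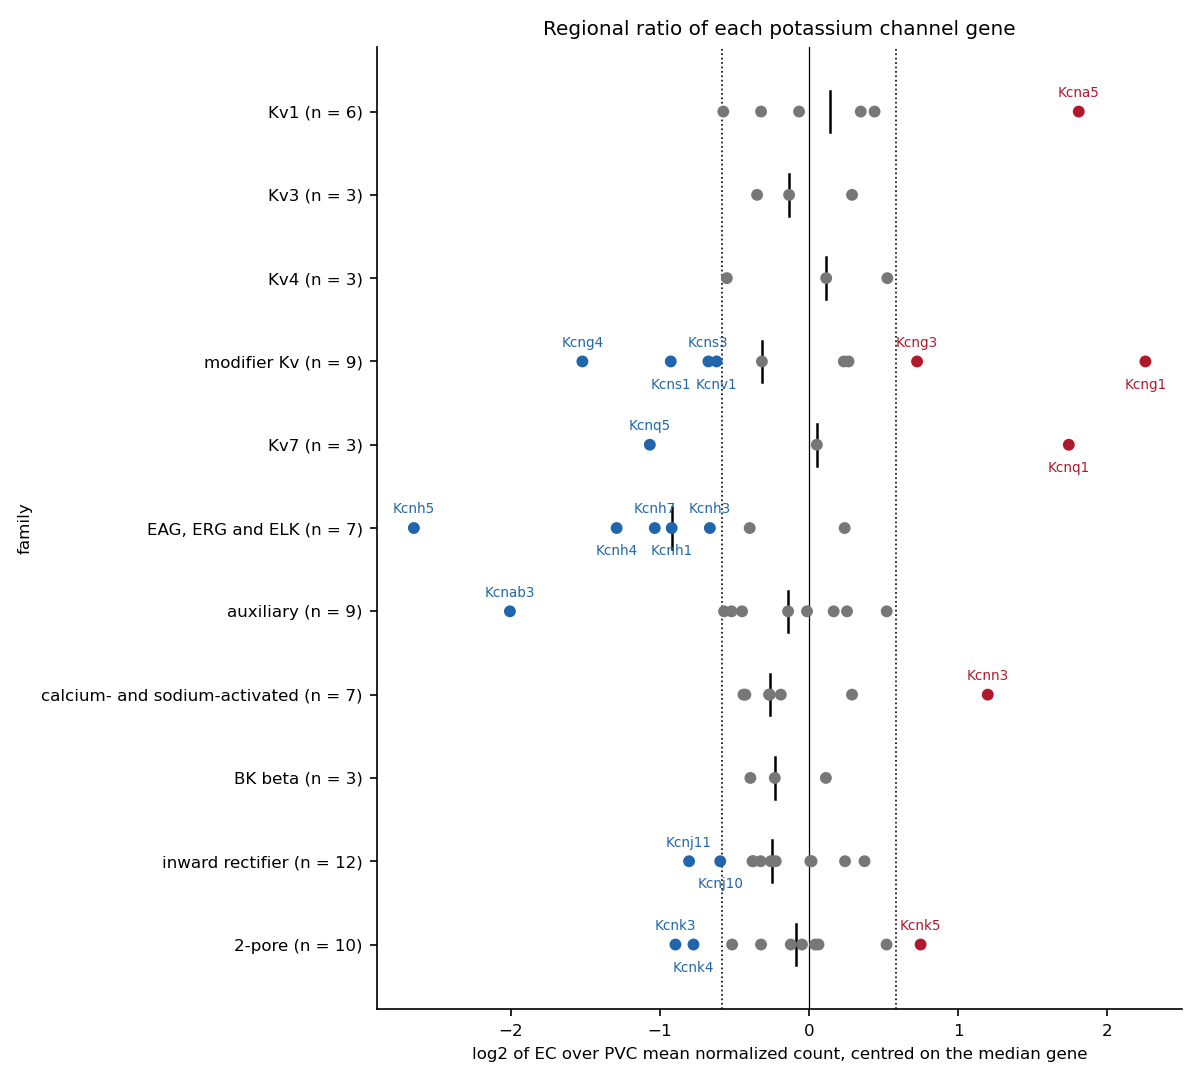
Each point is 1 of 72 plotted potassium channel genes, by family (rows), on the log2 ratio of EC over PVC mean normalized count centred on the median of all genes. Short bars are medians of the plotted genes, dotted lines the 1.5-fold limit, red genes were called higher in the EC and blue ones in the PVC. Points run from −2.65 for Kcnh5 to 2.26 for Kcng1, and 5 of the 7 EAG, ERG and ELK genes lie past the PVC limit.

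Levels were compared between genes only per kilobase (kb) of exon. The order of the 76 genes was much the same in both regions, with a Spearman rho of 0.945 across genes, which share the libraries and the lengths. The level per kb ran from 4.39 for *Kcnmb1* to 3101 for *Kcnab2* in the EC, and from 2.77 to 2280 for the same genes in the PVC. *Kcnab2*, the beta2 subunit of Kv1 channels, was thus the most abundant member in both. Below it in the EC stood *Kcnip3*, a calcium-binding partner of Kv4 channels, and the inward rectifiers *Kcnj4* and *Kcnj9*, at 2741, 2683 and 2504 per kb. The 10 highest genes held 43.2% of the summed level per kb in the EC versus 40.6% in the PVC, and 7 of them were shared.

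**Figure D2:**
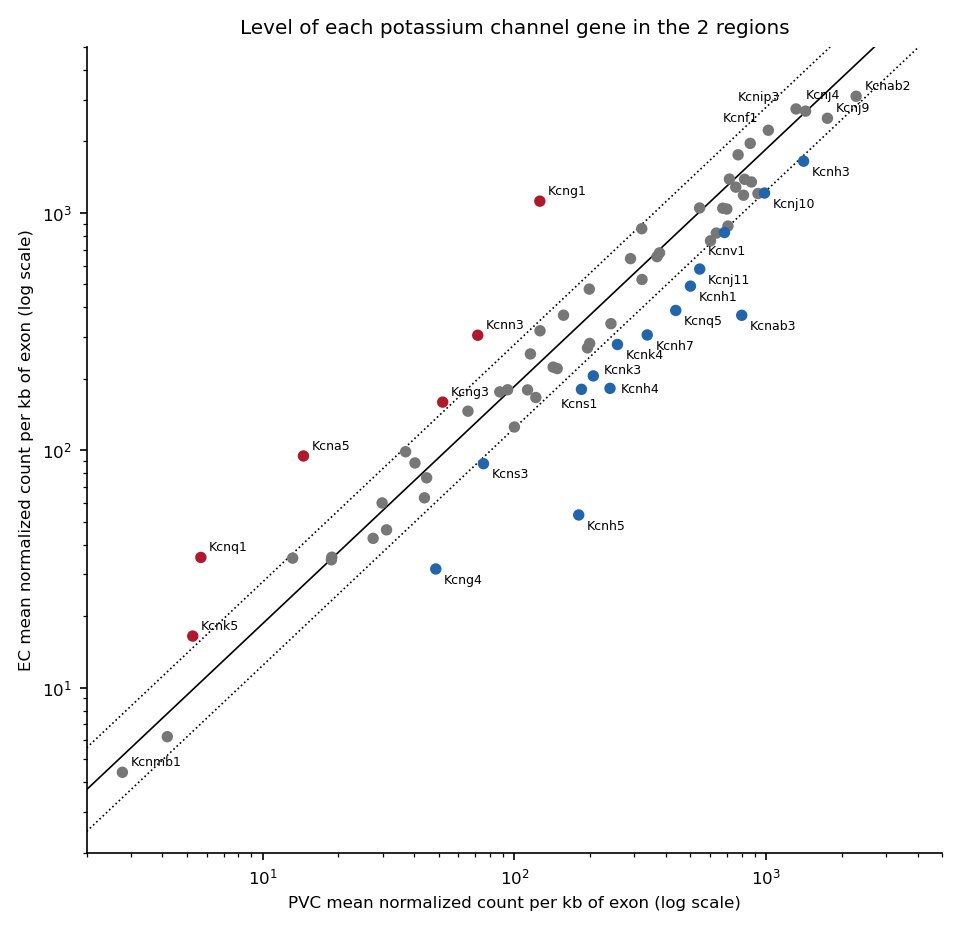
Each point is 1 of 72 plotted genes, with its PVC (x axis) and EC (y axis) mean normalized count per kb of exon, both on log scales. The solid line is the ratio of the median gene (1.86), dotted lines lie 1.5-fold above and below it, and red and blue mark genes called higher in the EC and the PVC. Kcng1, at 1120 per kb in the EC versus 126 in the PVC, is the abundant gene farthest above the line, and Kcnab3 and Kcnh5 lie farthest below.

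The 6 genes called higher in the EC belong to 5 families. *Kcng1* encodes Kv6.1, a modifier that joins pore-forming Kv subunits. It lies on chromosome 2 of NCBIM37 from 168085617 to 168107236 and had a mean normalized count of 5050 in the EC versus 569 in the PVC. Its level was 4.78-fold higher in the EC (log2 2.26), and 37 of the 15642 genes had a higher ratio. It made up 22.4% of the modifier family's level per kb in the EC versus 5.25% in the PVC. *Kcng3*, which encodes the modifier Kv6.3, stood at 535 and 174, a log2 ratio of 0.73.

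*Kcna5* encodes Kv1.5, a delayed rectifier best known from the atrium of the heart. On chromosome 6 from 126482571 to 126485573, it had means of 284 in the EC versus 43.6 in the PVC (3.50-fold, log2 1.81), with 87 genes above it. It was still the lowest of the 6 Kv1 genes per kb in each region. *Kcnq1*, the Kv7 channel of heart and inner ear, on chromosome 7 from 150293159 to 150612955, had means of 109 and 17.6 (3.35-fold, log2 1.74). With 10 counts added, *Kcna5* was at 1.60 and *Kcnq1* at 1.25, and both were still called. Both genes were thus minor members of their families that stood out by ratio and not by level.

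*Kcnn3* encodes SK3, a small-conductance calcium-activated channel that shapes the afterhyperpolarization. Its means were 940 in the EC versus 220 in the PVC (2.30-fold), and it lies on chromosome 3 from 89324086 to 89471683. Its relatives *Kcnn1* and *Kcnn2* had log2 ratios of −0.44 and −0.19. *Kcnk5*, the alkaline-activated 2-pore channel TASK-2, had means of 55.4 and 17.8 (log2 0.75). With 10 counts added to both means, *Kcnk5* had a log2 ratio of 0.38 and was not called.

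Markers of the meninges and of the hippocampus were compared in the same way. In the EC, 4 of 4 meningeal markers were called higher, with a summed mean normalized count of 6733 in the EC versus 877 in the PVC (log2 2.05 after scaling), and *Dcn* had a log2 ratio of 3.07. Of 6 dentate gyrus and hippocampus markers, 2 were called higher in the EC, *Fibcd1* at 2.13 and *C1ql2* at 1.79, and 1 in the PVC, *Bok* at −0.85, while *Prox1* was at −0.25. Summed means of that list were 4129 for the EC versus 1212 for the PVC (log2 0.88 after scaling). The sums cover all 8 listed genes, with *Dsp* and *Tdo2*, whose PVC means of 9.69 and 9.59 were under the minimum. *Fibcd1* alone supplied 2684 and 330 of these counts, so the summed ratio leans on that gene. None of these markers was at 0 in either region. Their part in the ratios of the channel genes was not tested.

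The largest ratios toward the PVC were those of *Kcnh5* and *Kcnab3*. *Kcnh5* encodes Kv10.2, an EAG channel active near rest. Found on chromosome 12 from 75998204 to 76278319, it had means of 217 in the EC versus 732 in the PVC. It was 6.27-fold higher in the PVC (log2 −2.65), the largest ratio in that direction among the 76 members, and 9 of all genes had a lower one. *Kcnab3* encodes the beta3 subunit of Kv1 channels, on chromosome 11 from 69139760 to 69146544. It stood at 1061 and 2293 (4.01-fold, log2 −2.01), and 44 genes had a lower ratio. A gene on the opposite strand overlaps 5.13% of its exon bases. Its share of the auxiliary family's level per kb was 4.00% in the EC versus 12.8% in the PVC.

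The EAG, ERG and ELK family, channels named after the fly mutant ether-a-go-go, had the lowest median of the 12 families. Of its 7 genes, 5 were called higher in the PVC and 0 in the EC, with a median log2 ratio of −0.92 where all genes have 0, and 6 of 7 lay below 0. Beside *Kcnh5* these were *Kcnh4* at −1.29 (means 721 and 949), *Kcnh7* at −1.03 (4657 and 5136), *Kcnh1* at −0.92 (3597 and 3667) and *Kcnh3* at −0.66 (6107 and 5214). *Kcnh1* is the other EAG channel, *Kcnh7* encodes ERG3, and *Kcnh3* and *Kcnh4* encode ELK channels. *Kcnh2*, which encodes ERG1 and is known from the long QT syndrome of the heart, was at −0.40, and the remaining ERG gene *Kcnh6* was at 0.24, so neither was called. The family held 6.12% of the level per kb of all members in the EC versus 9.13% in the PVC. *Kcnh3* was its most abundant gene, at 53.0% of the family in the EC versus 47.8% in the PVC, and the lowest were *Kcnh5* in the EC and *Kcnh6* in the PVC. On the pan-neuronal scale *Kcnh3* was not called and the other 4 still were.

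**Figure D3:**
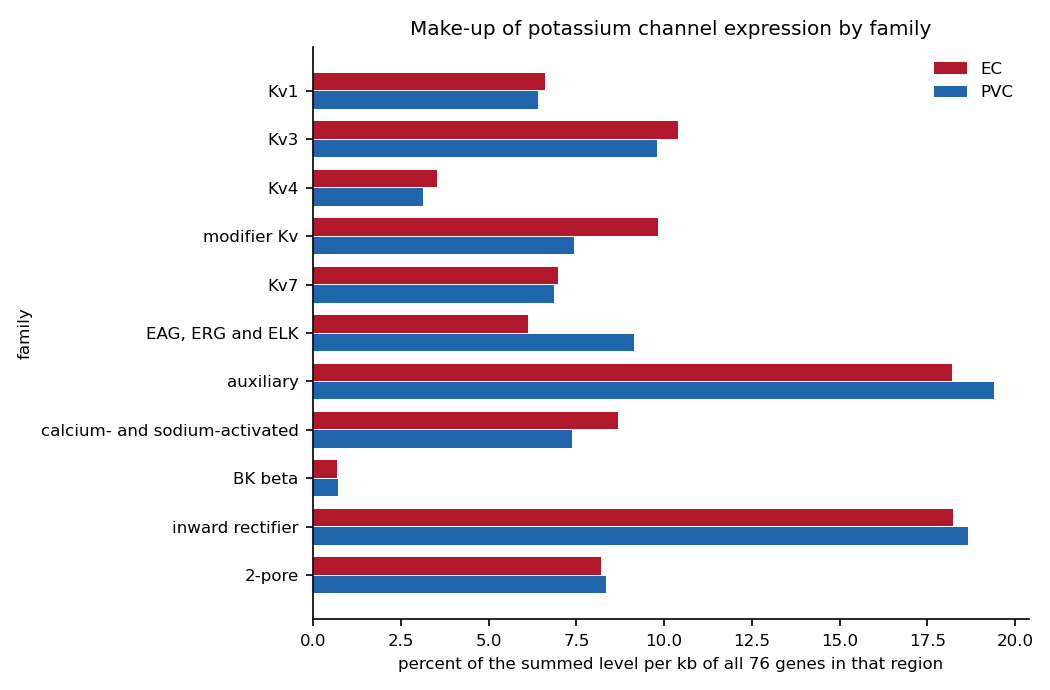
Bars give the share, in percent, that each of 11 families holds of the summed level per kb of all 76 genes, in the EC (red) and the PVC (blue). The EAG, ERG and ELK family held 6.12% in the EC versus 9.13% in the PVC, and the modifier family 9.84% and 7.44%. The auxiliary genes and the inward rectifiers were the largest families in both regions.

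The modifier family held genes at both ends. Of its 9 genes, 2 were called higher in the EC versus 4 in the PVC, with a median of −0.32 and a span of 3.78 on the log2 scale, which was the widest of the 12 families. *Kcng4*, which encodes Kv6.4, had means of 120 in the EC versus 186 in the PVC (log2 −1.52), and so lay on the other side from *Kcng1* and *Kcng3* of the same subfamily. *Kcns1* (489 and 501) and *Kcns3* (268 and 231), which encode Kv9 modifiers, were at −0.93 and −0.67. *Kcnv1*, which encodes Kv8.1, was at −0.62 with means of 3716 and 3074. The most abundant modifier was *Kcnf1*, with 44.6% of the family per kb in the EC versus 42.4% in the PVC and a log2 ratio of 0.23, and the lowest was *Kcng4* in both. *Kcng2* and *Kcns2*, at 0.27 and −0.32, were not called.

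Several Kv7 channels carry the M current, which restrains repetitive firing. Of the 5 Kv7 genes, *Kcnq5* was called higher in the PVC with means of 2994 and 3378 (2.10-fold, log2 −1.07). It made up 11.0% of the family per kb in the EC versus 19.7% in the PVC. *Kcnq1* was the lowest Kv7 gene in both, and *Kcnq3*, at 0.05, was not called.

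Kv1 channels sit on axons and set the threshold for firing. Apart from *Kcna5*, none of the 6 Kv1 genes was called. Per kb *Kcna2* led in the EC and *Kcna1* in the PVC, with 30.9% and 34.1% of the family, but without division by length *Kcna1* led in both. *Kcna1* was just inside the limit at −0.57 (means 7894 and 6330). *Kcna2*, *Kcna3* and *Kcna4*, at −0.32, 0.35 and 0.44, lay on both sides of 0. *Kcna6* was at −0.07, with 39.5% of its exon bases overlapped by a gene on the opposite strand, whose reads an unstranded library cannot separate.

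Kv3 channels allow fast spiking. *Kcnc4* was the most abundant Kv3 gene per kb of exon in both regions, with a log2 ratio of 0.29, but *Kcnc1* led in the PVC with the longest transcript as length and in both regions without division by length. *Kcnc1* and *Kcnc2*, which encode Kv3.1 and Kv3.2, were at −0.35 and −0.13. *Pvalb*, the marker of fast-spiking interneurons, was at −1.70 (696 and 1216), and 2 of 6 GABAergic markers were called higher in the PVC, with *Sst* at 0.33. These 6 markers summed to 38630 in the EC versus 24180 in the PVC, a log2 ratio of −0.22 after scaling, and none was at 0. Their part in the channel ratios was not tested.

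None of the 3 Kv4 genes, which carry the A-type current of dendrites, was called, but their order changed. *Kcnd3* held 47.7% of the family per kb in the EC versus 31.8% in the PVC, and *Kcnd2* held 42.5% and 59.6%. Their log2 ratios were 0.53 and −0.55, both just inside the limit, and *Kcnd1*, the lowest in both, was at 0.12.

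**Figure D4:**
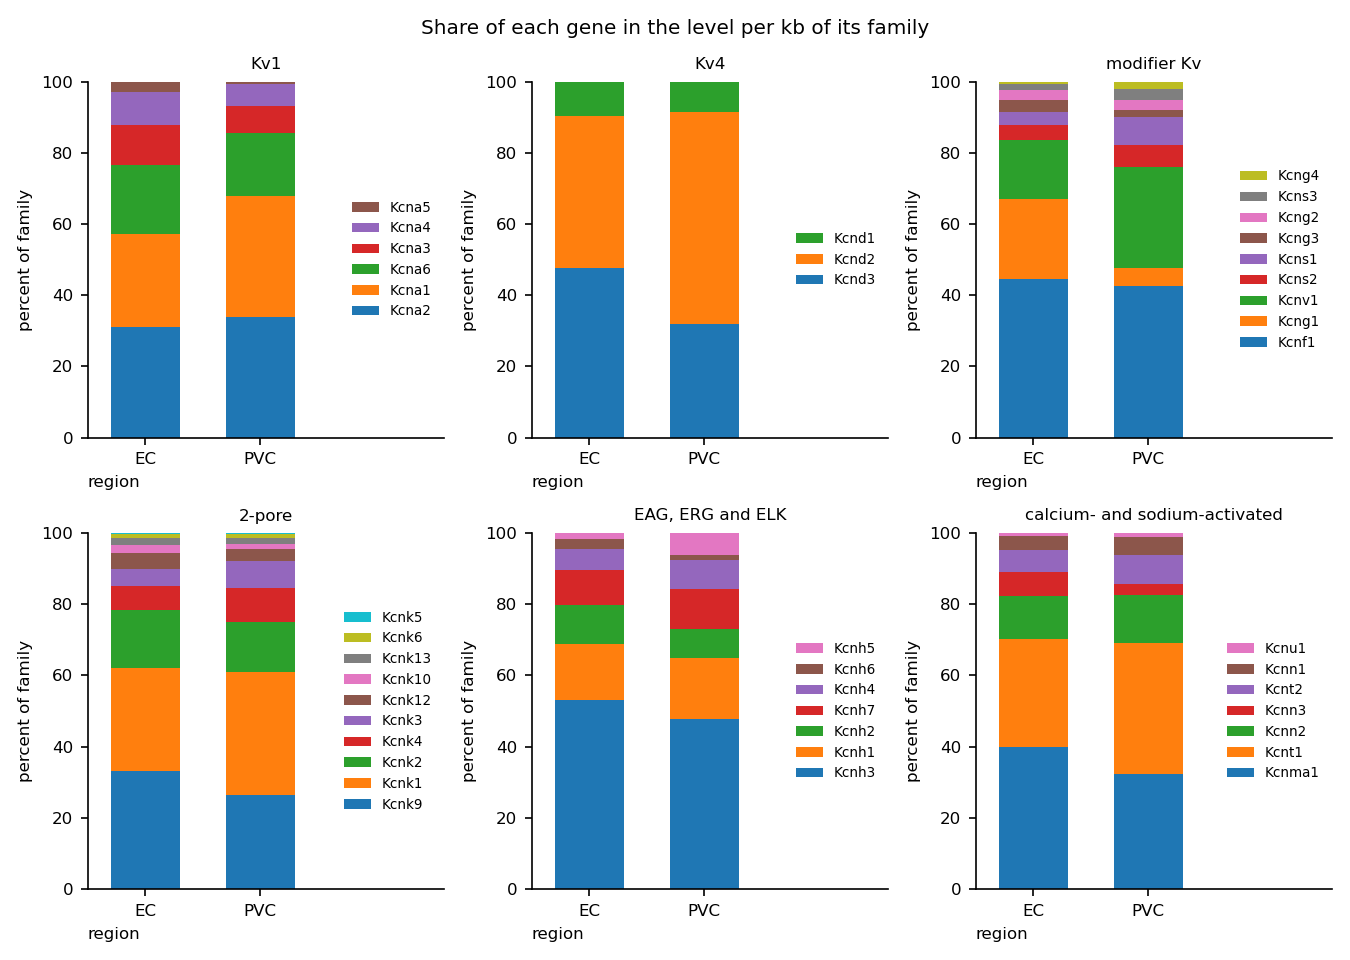
Stacked bars give the share of each gene in the level per kb of its family (percent, 0 to 100) in the EC and the PVC, for 6 families. Kcng1 takes 22.4% of the modifier family in the EC versus 5.25% in the PVC, Kcnk1 takes 28.9% and 34.4% of the 2-pore family, and Kcnd2 takes 42.5% and 59.6% of Kv4.

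Of the 9 auxiliary genes only *Kcnab3* was called, and their median was −0.14 (0.07 on the pan-neuronal scale). *Kcnab2* led the family with means of 17297 and 12715 and a log2 ratio of −0.45. The Kv4-binding *Kcnip1*, at −0.57, and *Kcne4*, at 0.52, lay near the limit on either side. The lowest were *Kcnrg* in the EC, at 29.6 counts, and *Kcne4* per kb in the PVC.

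Among the 7 calcium- and sodium-activated genes, those other than *Kcnn3* lay within the limit, and the median was −0.26. Per kb *Kcnma1*, the pore of the large-conductance BK channel, led in the EC with 39.8% of the family, and the sodium-activated *Kcnt1* led in the PVC with 36.6%. Without division by length *Kcnt1* led *Kcnma1* in both regions. Their log2 ratios were 0.29 and −0.27, and *Kcnu1* was the lowest in both. The other 4 genes of the family ran from −0.44 to −0.19. None of the 3 BK beta genes, which tune the calcium response of that channel, was called, and their ratios ran from −0.39 to 0.11. *Kcnmb4*, the beta4 subunit of neurons, held 81.4% of them in the EC versus 85.9% in the PVC, with 31.5% of its exon bases overlapped on the opposite strand.

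Of the 12 inward rectifiers, 2 were called higher in the PVC and 0 in the EC, with a median of −0.25. *Kcnj11* is the pore of the ATP-sensitive channel that ties excitability to metabolism. Its means were 1783 and 1676 (log2 −0.80). *Abcc8*, which encodes the sulfonylurea receptor that completes that channel, had a ratio of −0.81 (1897 and 1787). *Kcnj10*, the Kir4.1 channel with which glia take up potassium, was at −0.59 (6555 and 5332), at the edge of the limit. Under each of the 3 other scalings, with a minimum of 100 and with 10 counts added it was not called. Astrocyte markers had a median log2 ratio of 0.24 with 1 of 6 called, higher in the EC, whereas 6 of 6 oligodendrocyte markers were called higher in the PVC, with a median of −1.44 and sums of 45350 in the EC versus 63080 in the PVC (log2 −1.37 after scaling). None was at 0, and their part in the ratio of *Kcnj10* was not tested. Per kb *Kcnj4* led the family in the EC and *Kcnj9* in the PVC, and *Kcnj5* was the lowest in both. Without division by length *Kcnj9* led in both regions. The 10 rectifiers that were not called ran from −0.38 to 0.37, among them *Kcnj16*, a partner of Kir4.1 in glia, at the upper end.

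Of the 10 2-pore channels, which carry leak current, 1 was called in the EC versus 2 in the PVC, with a median of −0.08 (0.12 on the pan-neuronal scale). *Kcnk3*, the acid-sensitive TASK-1, was at −0.90 (783 and 785), and *Kcnk4*, the mechanosensitive TRAAK, at −0.77 (478 and 441). Per kb *Kcnk9* led in the EC and *Kcnk1* in the PVC, with 33.2% and 34.4% of the family, and *Kcnk5* was the lowest in both. Without division by length *Kcnk1* led in both regions. The 7 channels that were not called ran from −0.52 for *Kcnk1* to 0.52 for *Kcnk10*.

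Partners of these channels that do not carry the Kcn name, together with the related HCN channels, were taken from a list. Of its 19 genes with a ratio, 1 was called higher in the EC versus 4 in the PVC, with a median of −0.10. Among all genes 6.78% were called higher in the EC and 5.38% in the PVC. *Hcn4*, a pacemaker channel, was at 1.60 (382 and 67.8), whereas *Hcn2* was at −0.49. *Lrrc55* and *Lrrc38*, gamma subunits of BK channels, were at −1.87 (369 and 724) and −1.37 (42.4 and 59.2), while their pore *Kcnma1* was at 0.29. The gamma subunit *Lrrc26* was at 0.16 (129 and 62.3) and was not called. *Cntn2*, which holds Kv1 channels beside the nodes of myelinated axons, was at −0.74. From the same list, *Cntnap2*, *Adam22* and *Lgi1* were at −0.10, −0.10 and 0.47 and were not called. *Lrrc52* was near 0 in both regions, at 0.329 and 0.127 counts.

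**Figure D5:**
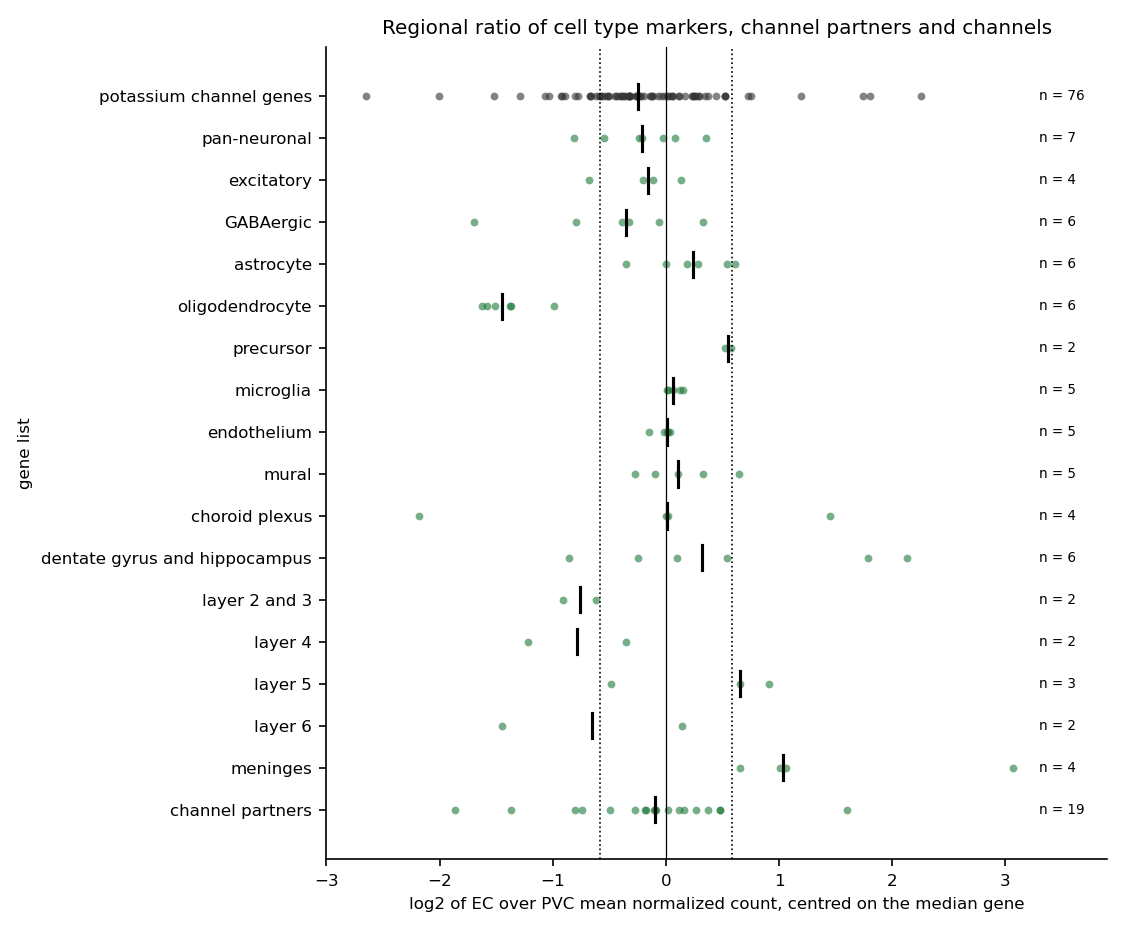
Points are genes on the log2 ratio of EC over PVC mean normalized count centred on the median of all genes, by list (rows), with short bars for the medians and dotted lines at the 1.5-fold limit. The 76 potassium channel genes have a median of −0.25 and the 7 pan-neuronal genes one of −0.21. Oligodendrocyte markers lie to the PVC side (median −1.44) and meningeal markers to the EC side (median 1.04).

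The pan-neuronal markers themselves had a median of −0.21, with 5 of 7 below 0 and sums of 338500 in the EC versus 223400 in the PVC (log2 −0.29 after scaling), and 1, *Nefl* at −0.81, was called. The 4 excitatory markers had a median of −0.16, with 3 below 0. Of these, *Slc17a6* was called higher in the PVC, at −0.68 (1283 and 1106). *Slc17a7*, a glutamate transporter of excitatory neurons, was abundant in both regions, with means of 77880 in the EC versus 38120 in the PVC. Its log2 ratio was 0.14 after scaling. None of the neuronal or glial markers was at 0. Layer markers differed between the regions. *Rorb* and *Scnn1a* of layer 4 were at −1.22 and −0.36, and *Cux1* and *Cux2* of the upper layers at −0.62 and −0.91. Markers of layers 5 and 6 were split. In layer 5 *Etv1* and *Bcl11b* were at 0.66 and 0.91 but *Fezf2* at −0.49, and in layer 6 *Foxp2* was at −1.45 but *Tle4* at 0.14. What part the make-up of layers had in the channel ratios was not tested.

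Calls were not confined to low counts. Of the 70 members with an EC mean of at least 100, 21 were called, where 10.2% of all genes at that level were, and of the 6 below it 1 was, where 23.4% of all genes were. This split used the EC mean alone, so *Kcna5* and *Kcnq1*, with PVC means of 43.6 and 17.6, fell in the upper group. With a minimum of 100 in both regions, 65 members were left. Of these, 3 (4.62%, against 4.03% of all genes) were called higher in the EC and 15 (23.1%, against 4.32%) in the PVC. Closest above the minimum of 10 counts were *Kcnmb1* (18.4 in the EC versus 11.6 in the PVC) and *Kcnrg* (29.6 and 16.1). Just under it were *Kcnh8* (17.1 and 7.06), *Kcne3* (15.7 and 2.83) and *Kcnk7* (8.26 and 3.84), which were left out.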

How the data were processed

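RNA from the EC and PVC of 29 mice was extracted with TRIzol, and poly(A)+ RNA was made into unstranded TruSeq libraries and read as single ends. Per the labels, the authors aligned reads with TopHat2 2.0.6 and Bowtie2 2.0.2.0 to mm9, counted them per gene with HTSeq on a modified NCBIM37 annotation, and used DESeq2 1.10.1. They deposited 1 table per region. Its mean normalized count, counts divided by size factors and averaged by the authors over all libraries of the region, was used here as a signal. The log2 fold changes between genotypes, their standard errors, statistics and *p*-values in the same tables are the authors' own comparison and were not used. No value per library was analysed here, so depth per library is unknown and precision cannot be given.

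Samples were grouped by the labels into region and genotype. Ratios, medians and calls were obtained in Python 3.11.15 (pandas 2.3.3 and numpy 2.4.6, with scipy 1.17.1; figures by matplotlib 3.10.9), with a minimum mean of 10 and a limit of 1.5-fold. Ratios and calls, but not medians of gene lists, were tested on simulated data. All planted ratios lay past the limit and the noise was small, so the reliability of calls near the limit was not tested. Exon lengths, overlaps and coding sequences came from GENCODE vM1 on NCBIM37, which is not the authors' annotation release. All 76 members matched it by symbol. Genes named are the highest and lowest per kb of each family, all called members, the 5 largest ratios in each direction and those nearest the minimum, and some of these genes and sequences are not reported here. The genes with filter sequences, the neighbours on a chromosome and some relatives were named after their values were seen. The members and lists were chosen with earlier results of these data known. Alternatives were other scalings, a 2-fold limit, a minimum of 100 or none, 10 counts added and other lengths.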

Additional observations from a re-analysis of the deposited data

How the results depend on the processing

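No paired analysis was possible because the tables hold no value per library, and for the same reason no library could be left out. The number of members called higher in the EC was 6, and it was 10 on the pan-neuronal scale, 3 of 65 (4.62%, against 4.03% of all genes) with a minimum of 100, and 9 of 89 (10.1%, against 15.2%) with no minimum. The number called higher in the PVC was 16, and it was 10 on the pan-neuronal scale, 15 of 65 (23.1%, against 4.32%) with a minimum of 100, and 19 of 89 (21.3%, against 10.9%) with no minimum. With a 2-fold limit, 6 members (7.9%, against 2.12% of all genes) were called higher in the PVC and 4 (5.26%, against 2.66%) in the EC. The median log2 ratio of the members, −0.25, was −0.22 when scaled by sums or with no minimum, −0.23 when scaled by upper quartiles, −0.042 on the pan-neuronal scale, −0.30 with a minimum of 100, and −0.24 with 10 counts added or without the 3 members with over 10% of exon bases overlapped, a setting added after the data were seen. Some values near 0 changed sign. On the pan-neuronal scale, where every gene and the median of all genes is shifted up by 0.21, the medians of Kv7 (0.090), the auxiliary genes (0.067) and the 2-pore genes (0.12), and *Kcnrg* (0.19), became positive but stayed below the median of all genes. *Kcnrg* was also positive when scaled by sums (0.012) and by upper quartiles (0.0073). The Kv1 median was −0.049 with a minimum of 100, and *Kcnj4* was −0.019 with no minimum. A change of scaling adds the same shift to every gene and leaves ratios relative to the median of all genes as they were. Of 24 most abundant genes, 12 families in 2 regions, 1 changed with the longest transcript as length (*Kcnc4* in the PVC) and 6 without division by length (*Kcnc4* in both regions, and *Kcna2*, *Kcnma1*, *Kcnj4* and *Kcnk9* in the EC). Without values per library, no error can be given for any of these ratios, and small ones cannot be told from 0.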

Other observations

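Several potassium channel genes lie side by side in the genome, and the ratios of neighbours less than 200 kb apart were set beside each other. *Kcna5*, *Kcna1* and *Kcna6* follow each other on chromosome 6, with gaps of 100.9 and 62.5 kb, and had log2 ratios of 1.81, −0.57 and −0.07. *Kcna3* and *Kcna2* on chromosome 3, 63.4 kb apart, stood at 0.35 and −0.32, and *Kcnj16* and *Kcnj2* on chromosome 11, 38.2 kb apart, at 0.37 and −0.22. *Kcnj9* and *Kcnj10* on chromosome 1, 11.9 kb apart, stood at −0.38 and −0.59. *Kcnip1* and *Kcnmb1* on chromosome 11, whose spans overlap, stood at −0.57 and −0.23.

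The choroid plexus marker *Kcnj13*, which was left out of the potassium channel genes, had means of 159 in the EC versus 31.3 in the PVC (log2 1.45). *Gigyf2* on the opposite strand overlaps 49.1% of the exon bases of *Kcnj13*, and an unstranded library cannot separate the reads of these genes. *Kcne2*, the other one left out, had 8.46 and 5.06, under the minimum. Of the other markers of that list, *Ttr*, the transthyretin gene, had 155 and 378 (−2.18), and *Kl* and *Clic6* were at 0.02 and 0.00.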
